A study of Mus musculus with 12 samples.

Results

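The genes described are those of the cytosolic ribosomal proteins, the proteins that build the large and the small subunit of the ribosome outside mitochondria. They were chosen by name, as protein-coding mouse genes whose symbol is Rpl or Rps followed by a digit, together with the stalk genes Rplp0, Rplp1 and Rplp2 and with Rpsa. Symbols of pseudogenes, the Rps6k kinases and Rps19bp1 were left out. The rule found 85 genes among 29879 genes with counts. Of these, 43 belong to the large subunit, 31 to the small subunit and 3 to the stalk, and 8 are paralogs or expressed copies (Rpl3l, Rpl7l1, Rpl10l, Rpl22l1, Rpl36al, Rpl39l, Rps27l and Rps27rt). They lay on 19 chromosomes.

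Each ribosome carries 1 copy of nearly every one of these proteins, so their mRNAs are usually made and translated together. Their mRNAs commonly start with a run of pyrimidines, the TOP motif (terminal oligopyrimidine tract), through which the kinase mTOR and the RNA-binding protein Larp1 adjust translation to growth signals. Mammalian genomes hold many processed pseudogenes of them, that is, intronless copies of their mRNAs. In neurons, mRNAs of ribosomal proteins are known to be among those carried into axons and dendrites.

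Cortex RNA of the SNAP25 bacTRAP line, taken at postnatal day 21, was sequenced in 12 libraries that form 4 groups of 3. All groups carry the transgene. In such a line a tagged ribosomal protein is made under control of the Snap25 gene, which is active in neurons, so that tagged ribosomes and their mRNA can be pulled down (translating ribosome affinity purification, TRAP). Cortex RNA forms the group WCH, and what was immunoprecipitated from cortex forms TRAP. A gradient of sucrose and Percoll gave the synaptic band, which was sequenced directly as SNF and after immunoprecipitation as SynapTRAP. The labels do not say whether replicates came from separate animals or whether animals were pooled. The p-values reflect the spread between these samples, which may be technical in part. Replicate 1 of each group differed from replicates 2 and 3 in sex-linked RNA (counts below), so the replicates do not all come from the same animals.

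The libraries held 4368881 to 14335089 gene counts each. Outside the mitochondrial genome this left 1819853 (SNF replicate 1) to 7115176 (SynapTRAP replicate 2). Every library had counts for all 15 neuron, 10 astrocyte, 10 oligodendrocyte and 10 microglia markers on the lists used, the immunoprecipitates included. Astrocyte markers summed to 2214 to 2791 CPM (normalized counts, scaled by the trimmed mean of M-values, TMM) in WCH. In TRAP they reached 582 to 1367, in SNF 13777 to 18881 and in SynapTRAP 9327 to 15995. Microglia markers summed to 80.4 to 98.9, 24.6 to 52.2, 315 to 643 and 194 to 421 CPM in the same order. SNF and SynapTRAP thus both held more glial RNA than WCH, relative to the other genes. In bulk samples, fewer cells of a type and less RNA per cell cannot be told apart.

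Ribosomal protein mRNAs were a small part of the counted RNA. Their counts summed to 4417 to 20088 per library. As a share of the counts outside the mitochondrial genome they were 0.251%, 0.204% and 0.253% in the 3 WCH replicates, and 0.247%, 0.382% and 0.333% in TRAP. In SNF they were 0.265%, 0.213% and 0.249%, and in SynapTRAP 0.238%, 0.201% and 0.298% (the 95% Wilson intervals, for counting error only, were no wider than 0.0149 percentage points). TRAP replicates 2 and 3 lay above every other library, while TRAP replicate 1 lay within the range of WCH. The other 3 groups overlapped one another. The group means (± SD, n = 3) were 0.236% ± 0.0274 for WCH, 0.321% ± 0.0686 for TRAP, 0.242% ± 0.0267 for SNF and 0.246% ± 0.0488 for SynapTRAP. With mitochondrial counts in the total, the means were 0.140%, 0.309%, 0.0368% and 0.142%.

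These counts understate the mRNA levels, and unevenly. Per the deposited files, reads that aligned to more than 1 place were set aside, and they made up 14.4% to 28.9% of the reads of a library (28.9% in TRAP replicate 2). Reads from an mRNA that is copied in a pseudogene are therefore lost from its count. As a rough guide to this, the mRNA of each gene was divided into overlapping windows of 75 bases. Windows that also occur exactly in a transcript of another gene were counted (GENCODE M21, GRCm38). Any other annotated gene counts, pseudogene or not, so a gene overlapping at the same place is not told apart from a copy elsewhere. The protein-coding Fam69a, for example, shares 879 of the 1971 windows of Rpl5. Copies that are not annotated, or that differ within a window, are missed. The median gene shared 43.6% of its windows. Rps3, Rpl3l and Rpl39l were among 4 genes that shared none, 24 genes shared under 25%, 43 shared 25% to 75% and 18 shared over 75%. In all, 683 annotated pseudogenes shared windows with these genes, and 51 of them have counts of their own in the files. Rpl7a shared windows with 64 other genes, Rpl21 with 61 and Rps2 with 50.

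Levels fell as sharing rose. Compared per length, as CPM per kb of exon averaged over the 12 libraries, the median was 9.85 among the 24 genes with under 25% shared, 3.40 among the 43 between and 0.432 among the 18 with over 75%. Across the 77 genes that are not paralogs, Spearman's rho between the share and the level per length was -0.66, given as a description over genes that share the same libraries. Rps27, whose windows are 98.5% shared, had 0.235 CPM on average, and Rps6, whose phosphorylation is a common readout of mTOR activity (84.1% shared), had 0.0972. A low count of such a gene therefore does not show a low mRNA level. Rps29, with 30.7% shared, also stood at only 0.163 CPM.

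**Figure D1:**
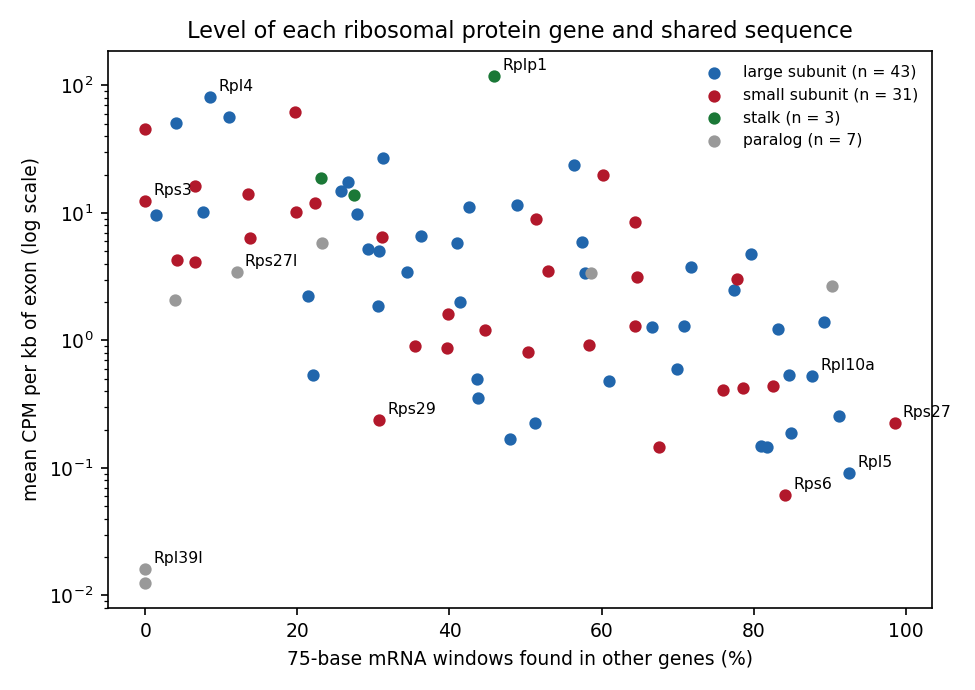
Each point is 1 ribosomal protein gene: the horizontal axis gives the percent of its 75-base mRNA windows found in transcripts of other genes, the vertical axis its mean CPM per kb of exon over the 12 libraries on a log scale, and colours the subunit. The median level was 9.85 under 25% shared and 0.432 over 75%; Rpl10l, without counts in any library, is not drawn.

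The first 60 coding bases of 2 gene pairs show how near such copies are, and capitals mark the bases at which a pair differs (GENCODE M21). Rps27rt has the same coding sequence as Rps27 (100% identical over 255 bases), so reads from within it belong to either gene.
Rps27: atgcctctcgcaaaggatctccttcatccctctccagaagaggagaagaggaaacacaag
Rps27rt: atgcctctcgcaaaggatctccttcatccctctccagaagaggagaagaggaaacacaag
Rpl36al is a copy of the X-linked Rpl36a on chromosome 12 and is 87.85% identical to it over 321 coding bases, with 11 differences in this stretch.
Rpl36a: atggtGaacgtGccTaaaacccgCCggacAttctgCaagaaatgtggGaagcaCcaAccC
Rpl36al: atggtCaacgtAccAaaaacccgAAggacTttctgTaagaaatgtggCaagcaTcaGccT
Rpl36al averaged 7.85 CPM and Rpl36a 0.880. However, 84.6% of the windows of Rpl36a and 23.3% of those of Rpl36al occur in transcripts of other genes, so these 2 levels are uncertain relative to each other.

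Among genes whose reads could mostly be placed, levels still differed widely. Rplp1, an acidic protein of the stalk that recruits translation factors, had the highest level per length at 118 CPM per kb. It was followed by Rpl4 (80.9), which lines part of the exit tunnel for the new protein, Rps15 (61.5), in the head of the small subunit, Rpl32 (57.1) and Rpl8 (51.1), which lies close to the catalytic centre. Rpl4 took 13% of all counts on these genes, and the 10 genes with most counts took 52.4%. Of the 85 genes, 34 had at least 10 CPM on average and 22 had under 1. The paralogs Rpl3l and Rpl39l, both known for narrow tissue expression, had a single read in 3 and 2 libraries, and Rpl10l had none.

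Calls were made in edgeR at an adjusted p under 0.05, over all 13404 genes that passed its filter on low counts. Of the 85 genes, 72 passed. The other 13 were Rpl10, Rpl10l, Rpl23a, Rpl24, Rpl27, Rpl28, Rpl39l, Rpl3l, Rpl5, Rps27, Rps27a, Rps29 and Rps6, and no change is reported for them.

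The comparison of TRAP with WCH asks which mRNAs are richer on tagged neuronal ribosomes than in the cortex. The ribosomal protein mRNAs that changed were all higher, from both subunits and the stalk: 10 of 37 large subunit genes, 3 of 27 small subunit genes and 2 of 3 stalk genes, and none of 5 tested paralogs. That is 15 of 72, or 20.8%, against 11.1% of all tested genes called higher, and 0 against 10.9% called lower. The median log2 fold change was 0.36, against -0.01 over all tested genes, with a range of -0.97 to 1.28 and 54 of 72 above 0. Among the 34 genes of at least 10 CPM, 14 were higher (41.2%, against 18% of all genes at that level) and the median was 0.67. None of the 34 was lower (13.8% of all genes at that level). In 19 of 72 genes (26.4%) the lowest TRAP library exceeded the highest WCH library, against 20.6% of all tested genes, and in 0 the reverse held, against 22.5%.

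The 3 stalk genes lay in the upper part of the range, and 2 of them were called. Rplp2 (ENSMUSG00000025508, chromosome 7, 141447370 to 141451585, GRCm38) had 29.1, 19.7 and 26.9 CPM in the 3 WCH replicates and 30.0, 64.8 and 88.6 in TRAP. TRAP replicates 2 and 3 were far above WCH, and replicate 1 was just above its highest library. Rplp2 rose (edgeR log2 fold change 1.28 ± 0.28 SE, adjusted p = 0.00326). Rplp0, the core of the stalk to which the acidic proteins bind (ENSMUSG00000067274, chromosome 5, 115559467 to 115563727), had 13.3, 12.4 and 12.6 CPM in WCH and 18.4, 28.4 and 39.7 in TRAP, without overlap (edgeR log2 fold change 1.17 ± 0.27 SE, adjusted p = 0.004). Rplp1 had 48.8, 21.02 and 42.0 CPM in WCH and 43.3, 66.6 and 80.9 in TRAP, overlapping in TRAP replicate 1, and did not pass (edgeR log2 fold change 0.77 ± 0.29 SE, adjusted p = 0.0559).

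Rpl8 (ENSMUSG00000003970, chromosome 15, 76904078 to 76906314) had 45.9, 42.0 and 47.6 CPM in WCH and 51.9, 109 and 163 in TRAP (edgeR log2 fold change 1.26 ± 0.29 SE, adjusted p = 0.00395). Rpl37, a small zinc-binding protein of the large subunit, had 19.7, 9.46 and 15.8 CPM in WCH and 19.3, 43.4 and 45.1 in TRAP (edgeR log2 fold change 1.26 ± 0.29 SE, adjusted p = 0.00457). In both genes TRAP replicate 1 lay near WCH, and for Rpl37 it overlapped it. Rps15 (ENSMUSG00000063457, chromosome 10, 80292453 to 80294114) went from 23.9, 21.5 and 22.6 CPM in WCH to 27.0, 54.0 and 56.4 in TRAP (edgeR log2 fold change 1.01 ± 0.25 SE, adjusted p = 0.00718).

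The other called genes with the largest or smallest changes were Rpl18 (1.13), Rpl13a (0.88), Rpl26 (0.87), Rpl41 (0.84), Rpl32 (0.75), Rpl7 (0.71) and Rps3 (0.68), in log2 fold change. The gene with the most counts did not pass. Rpl4 had 127, 131 and 139 CPM in WCH and 128, 148 and 147 in TRAP (edgeR log2 fold change 0.09 ± 0.21 SE, adjusted p = 0.8). Rpl22, an RNA-binding protein of the large subunit, stood at 0.18 and its paralog Rpl22l1 at 0.13, and neither passed. The paralogs Rpl36al (0.82, edgeR adjusted p = 0.0552) and Rpl7l1 (0.73, edgeR adjusted p = 0.0585) lay just past the threshold. Rpl3 (0.50), Rpl36a (1.01, at about 1 CPM), Rps4x (0.03) and Rpsa (0.78) did not pass either. Rpl10a, the protein that usually carries the tag in bacTRAP lines, had 10 to 15 counts per library in WCH and TRAP and 87.6% of its windows shared (log2 fold change 0.29, edgeR adjusted p = 0.74).

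**Figure D2:**
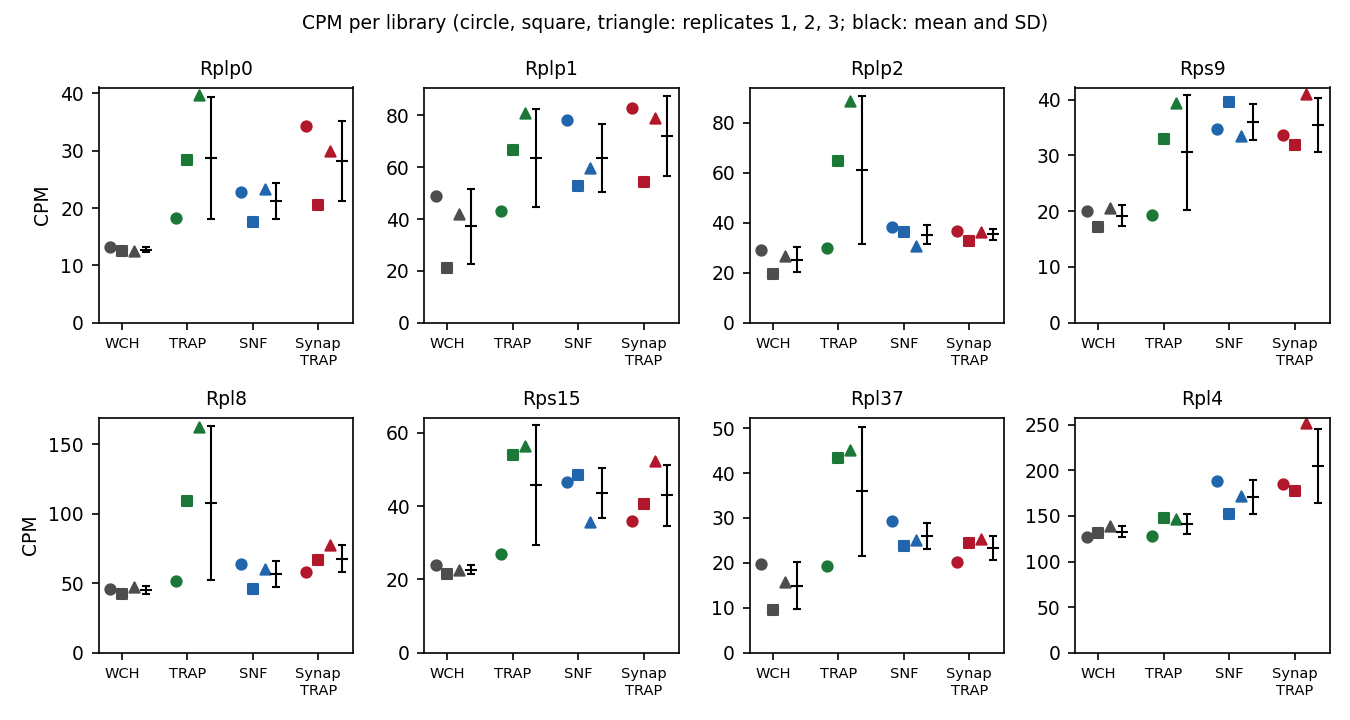
CPM of 8 ribosomal protein genes in each of the 12 libraries, on axes that start at 0, with circles, squares and triangles for replicates 1, 2 and 3 and the group mean with its SD in black (n = 3). In TRAP, replicate 1 of Rplp2, Rpl8 and Rpl37 (30.0, 51.9 and 19.3 CPM) lay near WCH, far below replicates 2 and 3.

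TRAP replicate 1 therefore stood apart from the other 2 for these genes. In each library, the median of the 72 genes (as log2 CPM less the WCH mean) was set against the median of all genes. The difference was 0.08, -0.11 and 0.13 in WCH and 0.18, 0.51 and 0.64 in TRAP. Without TRAP replicate 1, 24 genes were higher and Rps25 was lower (log2 fold change -1.62). The count of higher genes was 11 without TRAP replicate 2 and 5 without TRAP replicate 3, and it was 12, 6 and 9 without WCH replicates 1, 2 and 3. Of the 12 called genes with the 6 largest and 6 smallest changes, only Rplp0 kept its call in every alternative. With total counts outside the mitochondrial genome, which moved the median of all genes to -0.13, 9 were higher. With only TRAP and WCH fitted, 23 of 65 were (35.4%, against 15.5% of the genes tested there). For the other alternatives the share of all genes called is not given here, so their counts cannot be set against it. Other values moved with the TRAP libraries, and their part in the result was not tested. Neuron markers summed to 17086, 11329 and 19666 CPM in TRAP replicates 1 to 3 (11911 to 13152 in WCH), oligodendrocyte markers to 2252, 545 and 7121 (2814 to 3576), and endothelial markers to 7.34, 47.9 and 7.54 (11.1 to 12.7).

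**Figure D3:**
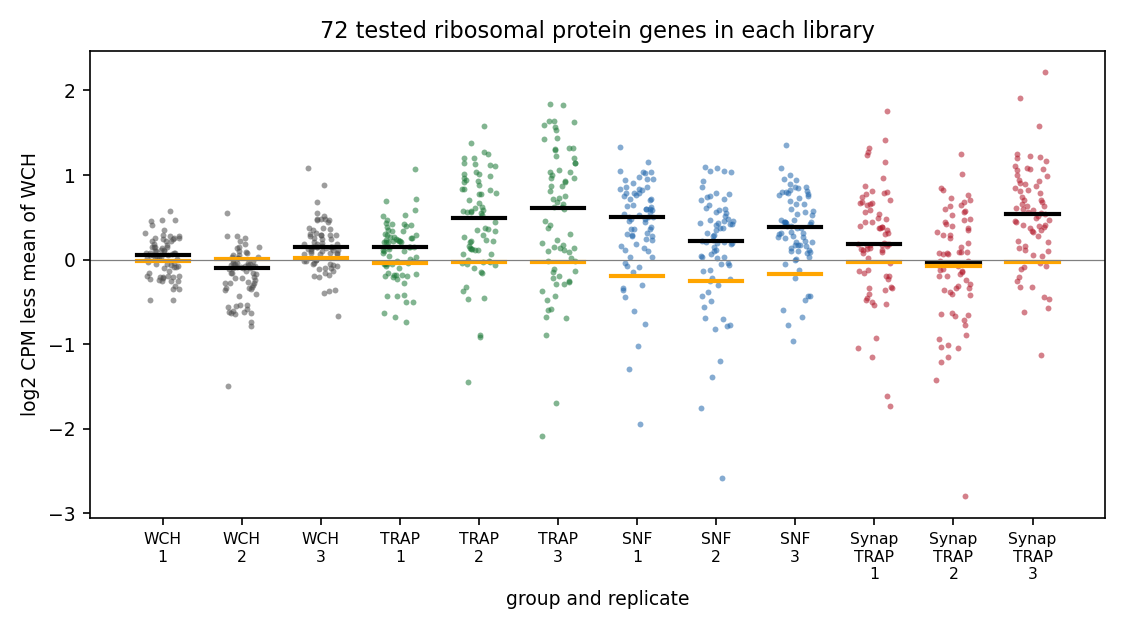
Each small point is 1 of 72 tested ribosomal protein genes, as its log2 CPM in a library less its mean in WCH; black bars are the medians of these genes and orange bars the medians of all 13404 tested genes. The black bar lay 0.18, 0.51 and 0.64 above the orange bar in TRAP replicates 1 to 3 and 0.69, 0.48 and 0.56 above it in SNF.

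The comparison of SNF with WCH asks which mRNAs are richer in the synaptic band. The median of the ribosomal protein mRNAs lay above that of all genes, and the count that rose depended on the libraries fitted. The median log2 fold change was 0.37, against -0.25 over all tested genes, and 59 of 72 were above 0. By the test, 10 rose (13.9%, against 20.6% of all tested genes) and Rps15a fell (1.39%, against 16.5%). With only SNF and WCH fitted, 23 of 63 rose (36.5%, against 27.8% of the genes tested there). Among the 34 genes of at least 10 CPM, 10 rose (29.4%) and 1 fell (2.94%), against 29.4% and 22.7% of all genes at that level. The 10 were 4 large subunit genes, 4 small subunit genes and 2 stalk genes. The direction of single genes depends on the scaling. With total counts outside the mitochondrial genome in place of TMM, the median of all genes moved from -0.25 to -0.63 and that of these genes from 0.37 to -0.01, and 0 were higher and 3 lower (Rps15a, Rpl15 and Rpl7l1). The distance between the medians was 0.62 in both, but a change of scaling moves all genes of a library alike. That distance was thus nearly fixed in advance. The share of all genes called with total counts is not given here.

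Rps15 had 23.9, 21.5 and 22.6 CPM in WCH and 46.6, 48.4 and 35.8 in SNF, without overlap (edgeR log2 fold change 0.94 ± 0.26 SE, adjusted p = 0.00694). Rps9, at the mRNA entry side of the small subunit, had 19.99, 17.2 and 20.5 CPM in WCH and 34.8, 39.6 and 33.6 in SNF, also without overlap (edgeR log2 fold change 0.91 ± 0.25 SE, adjusted p = 0.00694). Among the other genes that rose were Rpl13 and Rpl39 (both 0.84), Rpl37a (0.83), Rpl37 (0.80), Rplp1 (0.77), Rplp0 (0.73) and Rps10 (0.73). Rplp2 did not pass (0.48). Rps15a fell from 39.7, 28.6 and 32.0 CPM to 21.6, 19.1 and 21.9 (edgeR log2 fold change -0.68 ± 0.22 SE, adjusted p = 0.0187). Its groups did not overlap.

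The SNF libraries lay close together on this measure. The median of the 72 genes exceeded that of all genes by 0.69, 0.48 and 0.56 in SNF replicates 1 to 3. In 23 of 72 genes (31.9%) every SNF library lay above every WCH library, against 25.6% of all tested genes, and in 4 every one lay below, against 33.6%. No call of the 11 held in every alternative. The count of higher genes was 2, 6 and 4 without SNF replicates 1, 2 and 3, and 2 and 5 without WCH replicates 2 and 3. The share of all genes called in these fits is not given here. Astrocyte, oligodendrocyte and microglia markers were higher in SNF too (10, 7 and 10 of 10), and their part in the values of these genes was not tested. In the authors' deposited table for this band, which lists 3508 genes, 19 ribosomal protein genes appear, 13 of them with a false discovery rate under 0.05. Set beside the genes tested here, that is 19 for 72 and 3508 for 13404, which are like shares. Ordered by p, the 19 ranked 1890 to 3508 in the authors' table. Rplp0, with a false discovery rate of 0.0447, ranked 3134, so most of the 3508 genes lie under 0.05 too. All 10 genes that rose here are among the 19, but the table was deposited with these libraries, so the overlap is not an independent result. The deposited tables of local and of somatic candidates hold 0 of these genes, and the sizes of those 2 tables are not given here. Rps15 has a log fold change of 1.19 in the authors' deposited table.

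**Figure D4:**
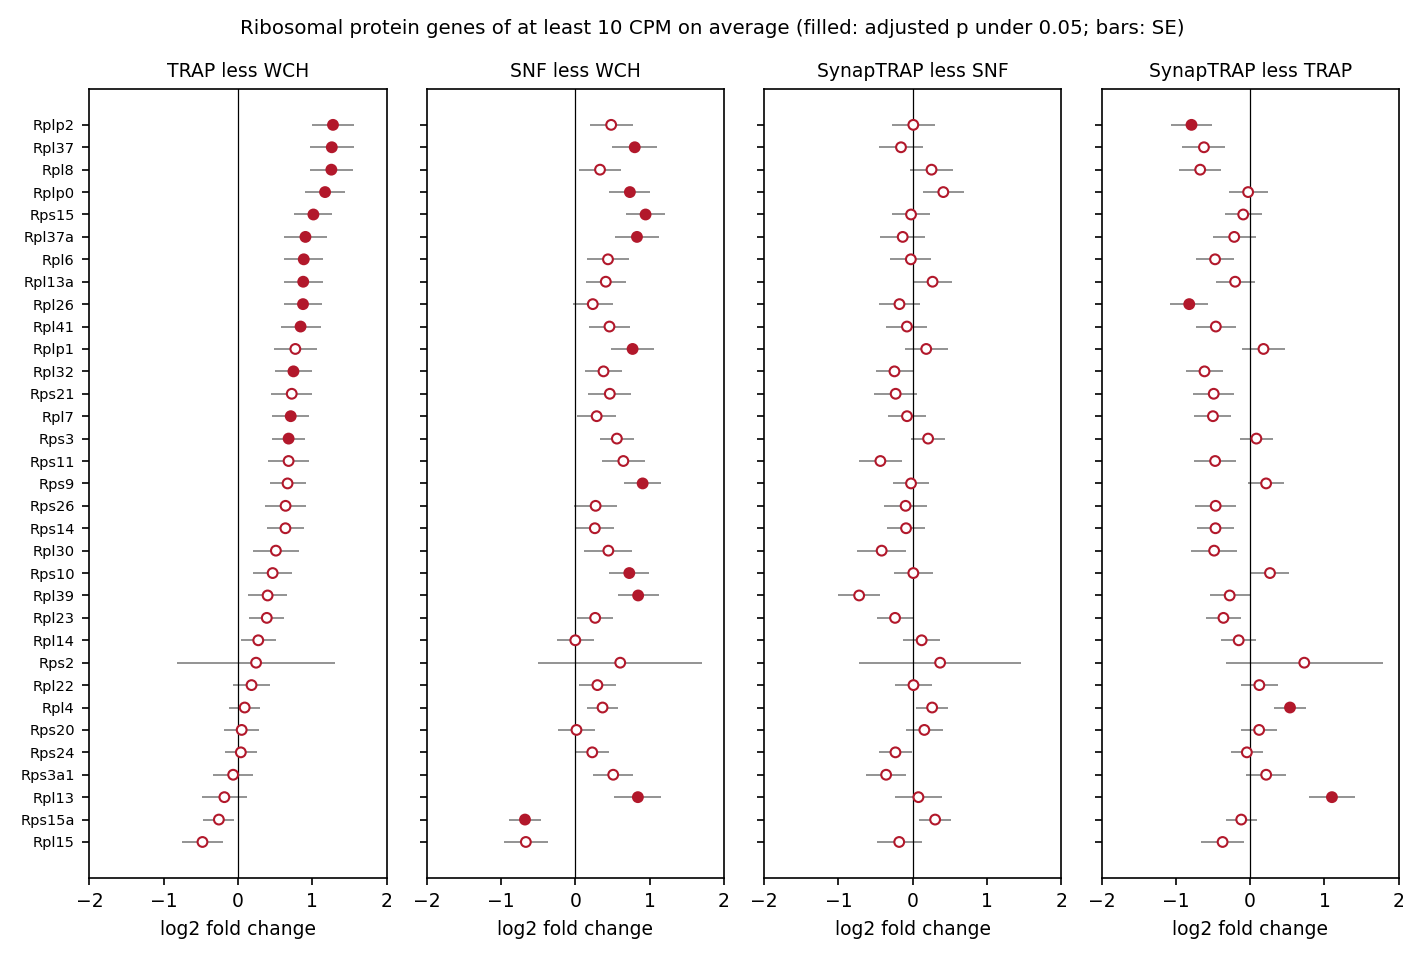
Log2 fold changes (points) with SE (bars) from the edgeR fit for 33 of the ribosomal protein genes of at least 10 CPM on average, in 4 comparisons, with genes in the order of their change in TRAP; filled points have an adjusted p under 0.05. Filled points number 13 in TRAP against WCH, 10 in SNF against WCH, 0 in SynapTRAP against SNF and 4 in SynapTRAP against TRAP.

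The comparison of SynapTRAP with SNF asks which mRNAs of the band are on tagged ribosomes. No ribosomal protein gene was called in either direction, against 2.29% of all tested genes called higher and 1.79% called lower. At an unadjusted p under 0.05 in edgeR, 1 of 72 was higher and 1 lower, beside 1456 higher and 1167 lower among all 13404 tested genes. DESeq2 also called 0. The median log2 fold change was -0.07, against 0.03 over all genes, and 30 of 72 were above 0. The sign of this median turned with single libraries: without SynapTRAP replicate 2 it was 0.05 (39 of 75 above 0) and without SNF replicate 1 it was 0.01 (38 of 74), while without SynapTRAP replicate 3 it was -0.25 (19 of 74). In 2 genes every SynapTRAP library lay above every SNF library and in 6 below, against 12.4% and 10% of all tested genes. The leading genes stayed close to their level in the band. Rps15 had 36.01, 40.7 and 52.2 CPM in SynapTRAP (log2 fold change -0.02, SE 0.26) and Rplp2 had 36.9, 32.8 and 36.4 (0.01, SE 0.29). These standard errors leave room for changes of a size called elsewhere, so equal levels are not shown.

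Same-numbered SNF and SynapTRAP libraries deviated together from their group means (correlations over 7259 genes of 0.276, 0.511 and 0.515). With the replicate number as a block, in a fit of these 2 groups alone that was chosen after seeing the data, 1 gene was higher and 2 were lower. The share of all genes called in this blocked fit is not given here. Its calls therefore cannot be read as particular to ribosomal protein genes. The 2 groups alone without the block gave 0 and 0, as did the block over all 12 libraries. Rpsa, a small subunit protein also known as a laminin receptor, had 2.30, 1.86 and 1.46 CPM in SNF and 5.37, 3.72 and 6.05 in SynapTRAP. Its groups did not overlap, and its log2 fold change was 1.35 in the blocked fit of the 2 groups (edgeR adjusted p = 0.0209), 1.36 in these groups without the block (edgeR adjusted p = 0.11) and 1.42 in the fit of all 12 libraries without it (edgeR adjusted p = 0.13). Rpl39, a short protein in the exit tunnel, had 21.6, 14.9 and 23.6 CPM in SNF and 9.38, 10.6 and 16.8 in SynapTRAP. Its groups overlapped, and its log2 fold change was -0.78 in the blocked fit of the 2 groups (edgeR adjusted p = 0.0133), -0.77 in these groups without the block (edgeR adjusted p = 0.182) and -0.72 in the fit of all 12 libraries without it (edgeR adjusted p = 0.148). Rpl39 was also the 1 gene called lower without SynapTRAP replicate 3 (-0.997). Rpl21, at 0.0759 to 3.16 CPM in these libraries, was the other lower gene in the blocked fit of the 2 groups (-1.63, edgeR adjusted p = 0.0392).

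SynapTRAP was also compared with TRAP, to ask how mRNAs on tagged ribosomes of the band differ from those of the cortex. Few ribosomal protein mRNAs differed in a comparison in which many genes did. Of the 72, 2 were higher (2.78%, against 21.6% of all tested genes) and 5 lower (6.94%, against 18.1%), and the median was -0.14 against -0.02. No small subunit gene of 27 was called. Astrocyte, oligodendrocyte and microglia markers were higher in SynapTRAP than in TRAP (10, 8 and 10 of 10). Their part in these values and in the shares of all genes called was not tested. In 3 genes every SynapTRAP library lay above every TRAP library and in 5 below, against 21.4% of all tested genes in each direction. Among genes of at least 10 CPM, 2 of 34 were higher and 2 lower, against 28.4% and 22% of all genes at that level, and their SEs were of like size (medians 0.261 and 0.254).

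The 2 higher genes were Rpl13 and Rpl4. Rpl13 had 7.61, 8.42 and 7.19 CPM in TRAP and 13.8, 10.4 and 26.2 in SynapTRAP, without overlap (edgeR log2 fold change 1.10 ± 0.31 SE, adjusted p = 0.00688), but 79.6% of its windows occur elsewhere, and it lost its call without SynapTRAP replicate 3 (0.64). Rpl4 had 128, 148 and 147 CPM in TRAP and 186, 177 and 252 in SynapTRAP, without overlap (edgeR log2 fold change 0.54 ± 0.21 SE, adjusted p = 0.0465). Its call was lost in 16 of 19 alternatives.

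The 5 lower genes included 2 paralogs. Rpl36al (ENSMUSG00000049751, chromosome 12, 69182731 to 69184083) had 8.56, 14.8 and 12.5 CPM in TRAP and 3.45, 6.22 and 5.60 in SynapTRAP, without overlap. In edgeR its log2 fold change was -1.23 ± 0.31 SE (adjusted p = 0.00361), and its call held in every alternative run. Rpl7l1 had 9.24, 14.3 and 11.3 CPM in TRAP and 5.05, 5.39 and 7.22 in SynapTRAP, without overlap (log2 fold change -0.99, edgeR adjusted p = 0.00765). The other 3 were Rpl27a (-1.13), Rpl26 (-0.82) and Rplp2 (-0.79). TRAP replicate 1 bears on these values as well. Without it, 1 gene was higher and 12 were lower, among them Rpl8 (-1.04) and Rpl37 (-0.96), and the median relative to all genes was -0.37 in place of -0.12. Without TRAP replicate 3 that median was -0.02, and 3 genes were lower. With total counts outside the mitochondrial genome, which moved the median of all genes to -0.30, 1 was higher and 16 lower. The share of all genes called in these alternatives is not given here. Their counts therefore do not show that ribosomal protein genes fell more often than other genes.

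The difference between both immunoprecipitation effects (SynapTRAP less SNF, minus TRAP less WCH) was tested directly. No ribosomal protein gene was called by edgeR, against 0.507% of all tested genes called higher and 0.358% called lower. At an unadjusted p under 0.05 in edgeR, 0 of 72 were higher and 18 lower, beside 1279 higher and 1040 lower among all 13404 tested genes. DESeq2 called 5 lower, and its count over all genes is not given here. The median was -0.49, against 0.07 over all genes, and 55 of 72 were below 0. Rpl37 (-1.42 ± 0.42 SE, edgeR adjusted p = 0.0946), Rplp2 (-1.27 ± 0.40 SE, edgeR adjusted p = 0.109) and Rpl36al (-1.42 ± 0.45 SE, edgeR adjusted p = 0.111) were nearest to the threshold. Without TRAP replicate 1, 9 genes were called lower, Rplp2 (-1.73) and Rpl37 (-1.84) among them, and the count over all genes is again not given. In the main edgeR fit of the 12 libraries, a smaller response to the immunoprecipitation in the band than in the cortex is thus not shown for any single gene. DESeq2, and edgeR with no filter, did call genes lower on the same libraries, so the calls depend on the method.

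Other genes of translation were read from the same fit. Of 75 tested mitochondrial ribosomal protein genes, whose products build the separate ribosome inside mitochondria, 22 were higher in TRAP than in WCH and 0 lower (list median 0.51). In SNF, 0 were higher than in WCH and 14 lower (-0.48, against 0.37 for the cytosolic genes), and in SynapTRAP 54 were lower than in TRAP (-1.07, against -0.14). Of 39 initiation factors, 12 were higher and 1 lower in TRAP, 1 higher and 10 lower in SNF, and 2 higher and 14 lower in SynapTRAP against TRAP. Of 11 elongation and release factors, 4 were higher in TRAP, 2 higher and 3 lower in SNF, and 1 higher and 2 lower in SynapTRAP against TRAP. Of 34 ribosome assembly factors, 5 were higher in TRAP, 6 lower in SNF, and 9 lower in SynapTRAP against TRAP. Of 16 regulators of TOP mRNA translation, 2 were higher and 2 lower in TRAP, 2 and 4 in SNF, and 1 and 2 in SynapTRAP against TRAP. Of all tested genes, 11.1% were higher and 10.9% lower in TRAP, 20.6% and 16.5% in SNF, and 21.6% and 18.1% in SynapTRAP against TRAP. No test compared these lists with the cytosolic genes.

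Rack1, a scaffold protein bound to the small subunit, had 68.2, 62.9 and 68.7 CPM in WCH and 80.2, 112 and 192 in TRAP (log2 fold change 0.94, edgeR adjusted p = 0.0102). TRAP replicate 1 was again the lowest of the 3. Eef1a1, which brings aminoacyl-tRNA to the ribosome and whose mRNA is a TOP mRNA, rose by 0.73 in TRAP (edgeR adjusted p = 0.0251). Eef2, the translocation factor, rose in TRAP by 1.15 (edgeR adjusted p = 0.00201) and also in SynapTRAP against SNF, by 1.11 (edgeR adjusted p = 0.0137). It had 255, 221 and 193 CPM in SNF and 569, 397 and 473 in SynapTRAP. Fau, which encodes a ribosomal protein made as a fusion with a ubiquitin-like sequence, stood at about 1 CPM (3 to 29 counts per library) and did not pass in any comparison.

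Since a TOP motif is described at the start of many of these mRNAs, the 15 bases before and the 15 after each start in RefSeq (GRCm38.p6) were read. A tract was defined as a C followed by at least 4 bases that are each C or T, with its C within 5 bases of the start, on the transcribed strand. Of the 85 genes, 65 had a RefSeq start, with 77 starts in all. A tract was present at 32 of these (41.6%), against 18.3% of 32851 starts of all genes. The genes that changed in TRAP were of both kinds, as the following starts show, with the tract in capitals. RefSeq starts can lie apart from those of GENCODE, so an absent tract says only that these letters are not in this window.
Rplp2 (higher in TRAP), chr7:141447636-141447665, plus strand: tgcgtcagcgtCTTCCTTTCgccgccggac
Rpl18 (higher in TRAP), chr7:45718056-45718085, plus strand: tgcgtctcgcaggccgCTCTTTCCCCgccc
Rpl13a (higher in TRAP), chr7:45128731-45128760, minus strand: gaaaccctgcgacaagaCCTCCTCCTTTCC
Rplp0 (higher in TRAP), chr5:115559452-115559481, plus strand: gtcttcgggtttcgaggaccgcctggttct
Rpl37 (higher in TRAP), chr15:5116598-5116627, plus strand: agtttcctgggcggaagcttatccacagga
Rps15 (higher in TRAP), chr10:80292416-80292445, plus strand: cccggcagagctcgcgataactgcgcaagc
Rpl36al (lower in SynapTRAP than in TRAP), chr12:69184053-69184082, minus strand: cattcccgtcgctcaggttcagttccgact
Of the 27 tested genes with a tract, 3 were higher in TRAP (11.1%, median log2 fold change 0.19), and of the 28 without one, 8 were (28.6%, 0.47), against 11.1% of all tested genes. In SNF, 3 of 27 (11.1%, 0.36) and 5 of 28 (17.9%, 0.40) were higher, against 20.6% of all tested genes. The difference between genes with and without a tract was not tested.

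In Rps2, whose product lines the mRNA entry channel, libraries differed by replicate number rather than by group. Its CPM were 11.7, 2.97 and 18.6 in WCH, 12.1, 3.08 and 23.8 in TRAP, 22.2, 5.32 and 22.6 in SNF and 21.3, 3.11 and 41.3 in SynapTRAP. Replicate 2 was lowest in every group, by at least 1.901 on the log2 scale, the widest such gap of the 13404 tested genes. The SE of Rps2 was 1.06 in TRAP against WCH, several times that of the other genes at its level. Rps18, in the head of the small subunit, had 7.10, 4.12 and 7.61 CPM in WCH, 6.73, 4.35 and 9.42 in TRAP, 10.1, 4.25 and 10.2 in SNF and 10.03, 3.79 and 11.5 in SynapTRAP, again lowest in replicate 2 in every group. In all, 5 of the 72 genes (Rpl29, Rpl34, Rpl35a, Rps2 and Rps18, singled out after their values were seen) were lowest in replicate 2 in all 4 groups, against 2.05% of all tested genes. In 6 genes (Rpl30, Rpl38, Rpl41, Rps2, Rps18 and Rps28) replicate 3 was highest in all 4 groups, against 2.55% of all tested genes.

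The reverse held for the pseudogene Gm10263, which has counts of its own in the files. It had 0, 37 and 0 counts in WCH, in replicate order, 3, 53 and 1 in TRAP, 0, 19 and 0 in SNF and 0, 37 and 0 in SynapTRAP. Its sequence is a copy of Rps28, with 209 of 210 coding bases the same. The stretch shown holds the 1 base, in capitals, at which they differ (coding bases 104 to 163 of Rps28, GENCODE M21).
Rps28: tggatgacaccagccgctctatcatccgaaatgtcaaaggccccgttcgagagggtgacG
Gm10263: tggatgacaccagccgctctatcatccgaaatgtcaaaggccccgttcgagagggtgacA
Rps28 itself had 2.08, 1.01 and 2.20 CPM in WCH, 1.97, 1.99 and 3.34 in TRAP, 2.01, 1.33 and 3.41 in SNF and 1.52, 1.29 and 2.95 in SynapTRAP. Replicates also differed in sex-linked RNA. Replicate 1 of each group had 38 to 2295 counts of Xist and 0 of the Y-linked Ddx3y, and replicates 2 and 3 had 0 to 10 of Xist and 63 to 422 of Ddx3y, so replicate 2 was not alone in this. The cause of the pattern in Rps2 was not tested. Without the 4 libraries numbered 2, an alternative chosen after seeing the data, 1 ribosomal protein gene was higher in TRAP than in WCH (Rplp0, 1.18) and 1 in SNF (Rpl39, 1.03), with 2 libraries left per group.

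**Figure D5:**
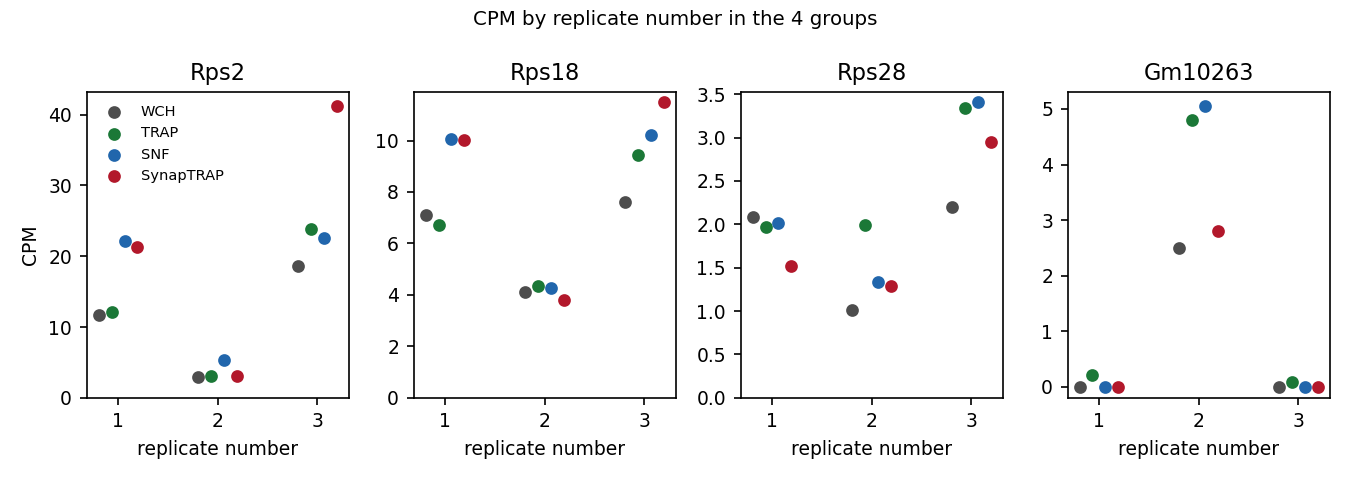
CPM of Rps2, Rps18, Rps28 and the pseudogene Gm10263 by replicate number, with 1 point per library coloured by group. Rps2 and Rps18 were lowest in replicate 2 in every group (2.97 to 5.32 and 3.79 to 4.35 CPM), where Gm10263 had 19 to 53 counts against 0 to 3 elsewhere.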

How the data were processed

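The 12 libraries were made from cDNA of a NuGEN kit, per the labels. For each library the authors deposited whole-number counts for every gene and 5 summary lines, which were left out (19.3% to 58.3% of reads). The submitters' processing notes name Bowtie2, STAR, HTSeq and edgeR. Versions, build, read length and strand setting were not given in the sources used here, so overlapping or antisense genes cannot be separated. Besides the counts, 3 tables of chosen genes were deposited, with log2 fold changes, p-values and false discovery rates per the file headers.

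Symbols, coordinates and transcripts came from GENCODE M21 (GRCm38), which matched 28758 of 29879 identifiers, and starts from RefSeq. The window of 75 bases was chosen here. A single edgeR 4.0.16 model (R 4.3.3) of the 12 libraries had 1 mean per group, TMM scaling and the default filter. Contrasts were tested by robust quasi-likelihood with Benjamini-Hochberg adjustment over 13404 genes. The script was tested on simulated data. Wilson intervals cover counting error alone, as amplified reads are not independent molecules.

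The members and lists were chosen with earlier results of these data known. Genes named in each comparison were the called ones with the 6 largest and 6 smallest changes, the stalk genes, the paralogs with their partners, Rpl10a, Rpsa and the 5 with the highest level per length. Others were named after their values were seen. Alternatives were RLE factors, total counts outside the mitochondrial genome, DESeq2 1.42.0, no filter, only the groups compared, a replicate block and leaving out each library.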

Additional observations from a re-analysis of the deposited data

How the results depend on the processing

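Counts on ribosomal protein genes are limited by depth and by shared sequence: 22 of 85 had under 1 CPM, and no interval covers reads lost to other places. Counts of genes called higher and lower follow, beside 15 and 0 in TRAP against WCH, 10 and 1 in SNF against WCH, 0 and 0 in SynapTRAP against SNF, 2 and 5 in SynapTRAP against TRAP, and 0 and 0 for the difference of the immunoprecipitation effects. With RLE factors, SNF against WCH gave 14 and 0, and SynapTRAP against TRAP 1 and 6. Total counts outside the mitochondrial genome gave 9 and 0, 0 and 3, 0 and 0, 1 and 16, and 0 and 0. Only the groups compared gave 23 in TRAP, 23 in SNF, and 1 and 3 in SynapTRAP against TRAP (65, 63 and 65 of the genes tested). Of all genes tested there, 15.5%, 27.8% and 19.3% were called higher. With no filter, SynapTRAP against TRAP gave 8 lower and the difference 2 lower, and DESeq2 gave 5 lower for the difference. Among the 21 tested genes with under 25% shared windows, the main fit had 7 higher in TRAP, 4 in SNF, and 1 higher and 3 lower in SynapTRAP against TRAP. Of all genes in that fit, 11.1% were higher in TRAP, 20.6% in SNF, and 21.6% higher and 18.1% lower in SynapTRAP against TRAP. Without the 4 libraries numbered 2 there were 1 and 0, 1 and 0, 0 and 0, and 1 and 1 in the first 4 comparisons. The last 2 alternatives were chosen after seeing the data. Except with only the groups compared and for the 21 genes, the share of all genes called in an alternative is not given. This includes the fits with single libraries left out. The counts of those alternatives therefore cannot be set against calls over all genes.

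Leaving out each library in turn gave 5 to 24 higher and 0 to 1 lower in TRAP against WCH, 2 to 14 and 0 to 1 in SNF against WCH, 0 to 0 and 0 to 1 in SynapTRAP against SNF, 0 to 2 and 3 to 12 in SynapTRAP against TRAP, and 0 to 0 and 0 to 9 for the difference. With all gene counts as the denominator, the summed share was 0.140% in WCH, 0.0368% in SNF and 0.142% in SynapTRAP. The distance of the genes' median from that of all genes ranged from 0.28 to 0.53 in TRAP and from 0.50 to 0.73 in SNF. No named gene that was called changed sign.

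Deviations of same-numbered libraries correlated at 0.276 to 0.515 for SNF and SynapTRAP, and at -0.117 to 0.267 for the other pairs of groups. Sex-linked RNA, Rps2 and Gm10263 followed the replicate number in all 4 groups. Whether same-numbered libraries share animals is not labelled, and the main model had no term for the replicate number. The replicate block over all 12 libraries gave 22 and 0 in TRAP, 10 and 1 in SNF, 0 and 0 in SynapTRAP against SNF, 3 and 6 in SynapTRAP against TRAP, and 0 and 0 for the difference. With the replicate block in SNF and SynapTRAP alone, 1 was higher and 2 lower. The causes of these shifts were not tested.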
